A study of Schizosaccharomyces pombe with 88 samples.

Results

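The comparison described here set the cells taken at the start of a synchronous culture, just after elutriation, against cells of the same strain 40 min later without drug. Its members were chosen by the array titles, as all 8 arrays of 0 min and all 8 arrays of untreated cells at 40 min, 16 of the 88 arrays of the series. Both times hold 2 array repeats of each of 4 fission yeast (Schizosaccharomyces pombe) strains, namely the wild type (WT) and the rad3, cds1 and chk1 mutants, whose alleles the labels do not give. All cultures were grown at 30 °C and synchronised by centrifugal elutriation, which collects the small cells in early G2. The start arrays precede the split of each culture into an untreated arm and an arm with 8 mM hydroxyurea (HU), so their titles name both arms. Each array compared Cy5-labelled cDNA of the sample with Cy3-labelled cDNA of asynchronous WT cells in mid-log growth, and every value below is a log2 ratio of sample over that reference or a difference of such ratios. The labels name 1 culture per strain and treatment and call the array repeats technical. The p-values therefore measure only the spread among these samples, and strain cannot be told apart from culture or array batch.

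Fission yeast answers many kinds of handling stress with a shared transcript programme, in which the mitogen-activated protein kinase Sty1 activates the transcription factor Atf1 and its partner Pcr1. Genes of trehalose and glycerol synthesis, antioxidant enzymes and small protective proteins are induced, while genes of ribosomes and protein synthesis are repressed. Small G2 cells returned to growth pass through mitosis, G1 and S phase in a near-synchronous wave.

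The mutated genes were read first. The rad3 gene, which encodes the ATR-related checkpoint kinase, stood at -2.65 at the start and -2.64 at 40 min on arrays labelled rad3, against 0.09 and -0.48 in WT. The cds1 gene, which encodes the replication checkpoint effector kinase, stood at -2.72 and -3.14 in the cds1 mutant, against 1.30 and -0.15 in WT. The chk1 gene, which encodes the damage checkpoint effector kinase, stood at -1.38 and -1.10 in the chk1 mutant, against -0.40 and 0.16 in WT. In each case the mutant was the lowest of the 4 strains at both times. In the other 3 strains cds1 was high at the start (1.30 in WT, 1.34 in rad3, 1.75 in chk1) and near the reference at 40 min (-0.15, -0.22 and -0.07). Sets of 4 values below are in the order WT, rad3, cds1, chk1.

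The start arrays were wider than the 40 min arrays in every strain. The SD over genes of an array's log2 ratios ran from 0.749 to 0.893 (median 0.816) at the start and from 0.420 to 0.585 (median 0.480) at 40 min, so that the narrowest start array lay above the widest 40 min array. The mean SD per strain was 1.70 times as large at the start, with p = 0.125 in the two-sided exact permutation test over 4 strain pairs, which is the smallest p that this design allows. The median absolute deviation, which leaves the extreme genes out of account, ran from 0.490 to 0.673 at the start and from 0.330 to 0.490 at 40 min, a ratio of 1.48.

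The additional width at the start was shared by the strains. The SD over genes of the mean of the 4 strains was 0.778 at the start and 0.411 at 40 min, while the SD between strains within a gene was 0.245 and 0.229. Correlations over genes between the strains' start profiles ran from 0.882 to 0.944, above the 0.701 to 0.794 of their 40 min profiles. These profiles share the reference RNA and genes are not independent replicates. The SD of a single array about its condition, taken as the SD over genes of the difference between repeats divided by the square root of 2, was 0.312, 0.199, 0.078 and 0.039 at the start and 0.296, 0.352, 0.053 and 0.045 at 40 min. It was larger at the start for WT and cds1 and smaller for rad3 and chk1. At the start, 355 genes had a 4-strain mean above 1 and 163 had one below -1, against 42 and 68 at 40 min. Genes past 1 in either direction were 10.5% of all genes at the start and held 70.1% of the sum of squares, and at 40 min they were 2.23% and held 36.7%. The upper tail was the longer one, with 122 genes above 2 and 19 below -2 at the start. The bulk of genes was wider as well: the middle 50% of genes spanned 0.719 at the start and 0.430 at 40 min. Over the 4246 genes in none of the gene lists used here the SD was 0.746 at the start and 0.384 at 40 min. The part of array processing in this width was not tested. Values after every array was scaled to an equal median absolute deviation (equal spread), or after quantile normalization, stand beside many of the results below.

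**Figure D1:**
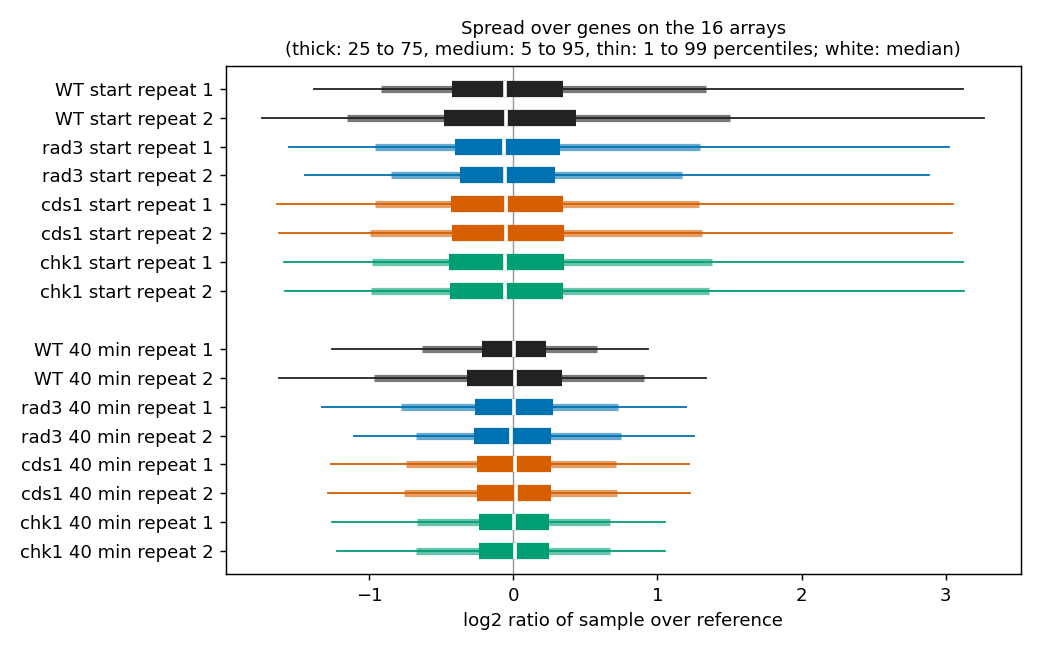
Percentiles over genes of the log2 ratio of sample over reference on each of the 16 arrays, coloured by strain, with thick bars from percentile 25 to 75, medium bars from 5 to 95, thin lines from 1 to 99 and a white tick at the median. All 8 start arrays (upper block) are wider than all 8 arrays of 40 min (lower block), most of all on the high side.

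From start to 40 min, 3176 of 4928 genes (64.4%) differed at an adjusted p under 0.05 by limma on strain-paired condition means (n = 4 strains). Of these 1768 (35.9% of the genes tested) rose and 1408 (28.6%) fell. Both shares are the background against which the list counts below are to be read. Large differences were mostly falls: 375 called genes (7.61%) fell by a log2 difference of 1 or more and 161 (3.27%) rose by as much. The median difference over all genes was 0.05. After scaling to equal spread this balance turned, with 1398 genes higher, 1507 lower and a median of -0.02, and after centring each array on its median 1541 were higher and 1590 lower (median -0.01). The 4 strains moved the same way for 3093 of the called genes. The calls rest on these same strain differences, so this count follows largely from the test and is no separate support. All 8 arrays of 40 min lay above all 8 start arrays for 778 genes (15.8%) and below them for 728 (14.8%).

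The transcripts that fell furthest had stood far above the asynchronous reference at the start. SPOM_SPACUNK4.17 stood at 6.41, 6.45, 6.62 and 6.48 at the start, and at -0.35, 2.19, 0.52 and 0.57 at 40 min. Its mean difference of -5.76 ± 0.33 (SE, n = 4 strains) was 54.1-fold, with an adjusted p of 7.21e-06 by limma. Start values of the 4 strains lay within a narrow band and the 40 min values were spread, with rad3 the highest. In bulk RNA, as measured here, fewer cells of a type and less RNA per cell cannot be told apart. The gene ssd2 went from 5.60, 5.10, 4.85 and 5.21 to -0.20, 0.97, -0.02 and -0.10, a difference of -5.03 ± 0.23 (SE). The gene lsd90 went from 6.50, 6.27, 6.28 and 6.25 to 0.77, 2.62, 2.36 and 1.27, a difference of -4.57 ± 0.30 (SE). The 15 largest falls were picked for size and for the same direction in all strains and repeats, which makes overlap of arrays unlikely. For each of these genes the arrays of the 2 times did not overlap, where 14.8% of all genes lay lower at 40 min without overlap. They include ish1, which encodes a stress-responsive nuclear envelope protein (-4.48 ± 0.26, SE), srk1, which encodes a kinase activated by Sty1 (-3.99 ± 0.18, SE), gut2, which encodes a glycerol-3-phosphate dehydrogenase (-3.60 ± 0.12, SE), mug147 (-3.72 ± 0.21, SE), pbi2 (-3.62 ± 0.23, SE) and wwm3 (-3.85 ± 0.35, SE).

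**Figure D2:**
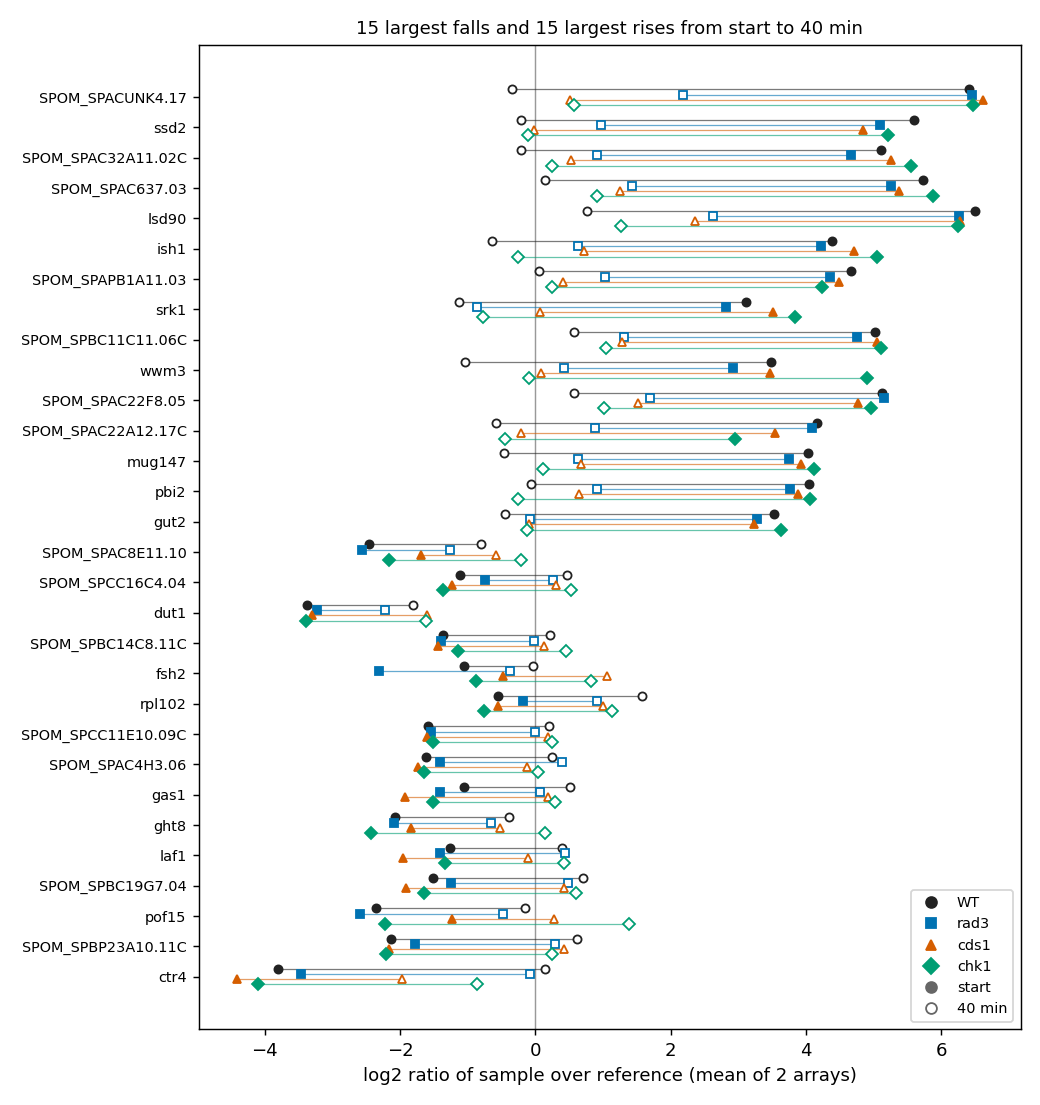
Log2 ratio of sample over reference (horizontal axis, mean of 2 arrays) at the start (filled) and at 40 min (open) in the 4 strains, for the 15 genes with the largest falls and the 15 with the largest rises. The falls begin between 2.82 and 6.62 and end between -1.13 and 2.62, with rad3 or cds1 highest at 40 min for all 15, and the rises begin below the reference.

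All 24 effectors of the environmental stress response fell, where 28.6% of all genes did, and the arrays of the 2 times did not overlap for 18 of them (14.8% of all genes). The list median was 2.86 at the start and 0.39 at 40 min, and the median difference was -2.22, with strain medians of -2.66, -1.78, -2.08 and -2.46. At the start all 24 genes stood above the reference in all 4 strains, and at 40 min 11 did. After scaling to equal spread 21 of the 24 fell (median -1.69), and after quantile normalization 16 fell and 1 rose (median -1.09).

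Among these effectors, the genes of protective sugars and polyols changed together. The gene tps1, which encodes trehalose-6-phosphate synthase, stood at 3.98, 3.32, 3.39 and 3.09 at the start and at 0.01, 0.56, 0.31 and -0.36 at 40 min, a difference of -3.31 ± 0.18 (SE, limma adjusted p 5.14e-06). The gene ntp1, which encodes neutral trehalase and so acts in the opposite direction on the same sugar, went from 2.98, 2.97, 2.71 and 2.94 to -0.16, 0.36, 0.21 and -0.36, a difference of -2.89 ± 0.14 (SE). The gene gpd1, which encodes the glycerol-3-phosphate dehydrogenase of glycerol synthesis, went from 3.86, 3.56, 2.63 and 3.18 to 1.00, 1.14, 0.16 and 0.58, a difference of -2.58 ± 0.10 (SE). All 3 genes had start arrays above all 40 min arrays, as 14.8% of all genes did.

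The small heat shock protein gene hsp9 fell less completely. It stood at 4.37, 4.73, 4.25 and 4.26 at the start and still at 1.31, 2.94, 2.15 and 2.61 at 40 min, a difference of -2.15 ± 0.21 (SE, limma adjusted p 7.45e-05), and it reached -0.37 as a mean of the strains at 80 min. After quantile normalization, its difference was 0.66 and did not pass the test (limma adjusted p 0.0721). The metallothionein gene zym1 went from 3.93, 4.30, 3.42 and 3.12 to 0.23, 2.23, 1.75 and 0.58 and so was far higher in rad3 and cds1 than in WT at 40 min. The catalase gene ctt1 fell by 1.79 on the log2 scale, but its 2 probes disagreed, with differences of -3.80 and 0.22.

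Members of the Sty1 kinase pathway changed by unlike amounts, the most in srk1 (above). Of 17 measured members 12 fell and 2 rose, where 28.6% of all genes fell and 35.9% rose (median -0.39; 12 and 2 after scaling to equal spread). The transcription factor gene atf1 went from 3.08, 2.93, 1.94 and 2.37 to 0.38, 0.66, -0.23 and -0.68, a difference of -2.55 ± 0.15 (SE, limma adjusted p 6.91e-06). Its partner gene pcr1 went from 2.72, 2.31, 2.48 and 2.66 to -0.27, -0.26, -0.20 and -0.44, a difference of -2.83 ± 0.11 (SE). The tyrosine phosphatase gene pyp2, whose product inactivates Sty1, went from 1.85, 1.93, 2.96 and 3.59 to -1.05, -0.22, -0.36 and -0.59, a difference of -3.13 ± 0.27 (SE). The phosphatase gene ptc1 (-2.63 ± 0.12, SE) and the phosphorelay gene mpr1 (-2.59 ± 0.15, SE) fell by similar amounts. By contrast the kinase gene sty1, chosen after its values were seen, fell by only 0.61 ± 0.09 (SE), and the genes wis1, which encodes the kinase that activates Sty1, and cmk2 rose by 0.57 ± 0.09 and 0.22 ± 0.08 (SE). These last genes are named as the exceptions of the list.

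Antioxidant genes were divided, where 28.6% of all genes fell and 35.9% rose. Of 20 measured genes of redox defence 11 fell, 1 rose and 8 did not pass the test (median -0.52, and 9 fell and 1 rose after scaling to equal spread). Among the falling genes, ctt1, gpx1, srx1, grx1 and gst2 are also stress effectors, so their falls are counted in both lists. The glutathione peroxidase gene gpx1 went from 4.10, 3.90, 3.80 and 3.62 to -0.06, 0.80, 0.41 and 0.06, a difference of -3.55 ± 0.16 (SE). The glutathione transferase gene gst3 fell by 3.26 ± 0.16 (SE), the sulfiredoxin gene srx1 by 2.98 ± 0.16 (SE), the peroxiredoxin-like gene pmp20 by 2.23 ± 0.10 (SE) and zwf1, which encodes the NADPH-producing glucose-6-phosphate dehydrogenase, by 2.20 ± 0.14 (SE). The exception was the thioredoxin gene trx2, which rose from -1.32, -0.71, -1.07 and -1.14 to -0.06, 0.08, -0.08 and -0.41.

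Genes of protein turnover also fell, by less, where 28.6% of all genes fell and 35.9% rose. Of 31 proteasome genes 26 fell and none rose (median -0.46; 25 or 26 under each scaling tried), in a narrow range from -0.88 to 0.13. The ATPase subunit gene rpt5 changed most, from 0.43, 0.57, 0.81 and 0.60 to -0.33, -0.38, -0.02 and -0.35. Of 28 autophagy genes 24 fell and 1 rose (median -0.63; 22 or more fell under each scaling tried). The protease gene atg4 went from 1.52, 1.28, 1.25 and 1.77 to -0.21, -0.51, -0.56 and -0.29, a difference of -1.85 ± 0.09 (SE, limma adjusted p 3.29e-06). Its substrate gene atg8, which encodes the ubiquitin-like protein of the autophagosome membrane, fell by 1.37 ± 0.10 (SE). The single rise was atg10, by 0.95 ± 0.13 (SE).

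Genes of ribosomes and protein synthesis moved the other way, by smaller amounts and in large numbers. Of 122 cytosolic ribosomal protein genes 116 rose and 1 fell, where 35.9% of all genes rose, and the median moved from -0.43 to 0.32. The median difference was 0.72, with strain medians of 1.00, 0.42, 0.55 and 0.95. At least 111 of the 122 rose under each scaling tried. For 33 of the 122 genes all arrays of 40 min lay above all start arrays, as for 15.8% of all genes. At the start 89 genes stood below the reference in all 4 strains, and at 40 min 88 stood above it in all 4. Many ribosomal protein genes occur as near-identical pairs whose probes may share signal, so single members are uncertain.

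The gene rpl102, for a protein of the large subunit, rose most within the list, from -0.54, -0.19, -0.55 and -0.75 to 1.57, 0.91, 1.00 and 1.13, a difference of 1.66 ± 0.15 (SE, limma adjusted p 6.16e-05). The small-subunit gene rps001 rose from -0.53, -0.99, -0.88 and -0.83 to 0.87, 0.27, 0.49 and 0.75. The single fall was rps2802, at -0.56 ± 0.10 (SE), and its 2 probes disagreed, with differences of -1.91 and 0.78. Its fall did not pass the test after scaling to equal spread (-0.25), and its difference was 0.11 after quantile normalization.

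The machinery that makes ribosomes changed with them, where 35.9% of all genes rose and 28.6% fell. Of 66 ribosome biogenesis genes 58 rose and 4 fell (median 0.54), with strain medians of 0.50, 0.58, 0.43 and 0.63. The processome gene utp25 rose from -0.67, -0.60, -0.57 and -1.06 to 0.33, 0.56, 0.41 and 0.35, and fib1, which encodes the nucleolar methyltransferase fibrillarin, rose by 1.02 ± 0.11 (SE). Of 12 RNA polymerase I genes, whose product transcribes ribosomal RNA, 11 rose and none fell (median 0.65), among them rpa12 with a rise of 1.08 ± 0.11 (SE). Of 32 translation factor genes 27 rose and 1 fell (median 0.55). The elongation factor gene tef3 rose by 0.88 ± 0.09 (SE), and the falling gene tif6 had probes that disagreed, with differences of -1.22 and 0.20, and did not pass the test after either scaling to equal spread or quantile normalization. Of 18 genes for purine and pyrimidine synthesis 17 rose and 1 fell (median 0.65). The uridylate kinase gene ura6 rose by 1.14 ± 0.10 (SE) and the IMP dehydrogenase gene gua2 by 1.09 ± 0.10 (SE), while the falling gene ade4 had probes at -1.01 and 0.52. These 4 lists kept their direction under each scaling tried.

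**Figure D3:**
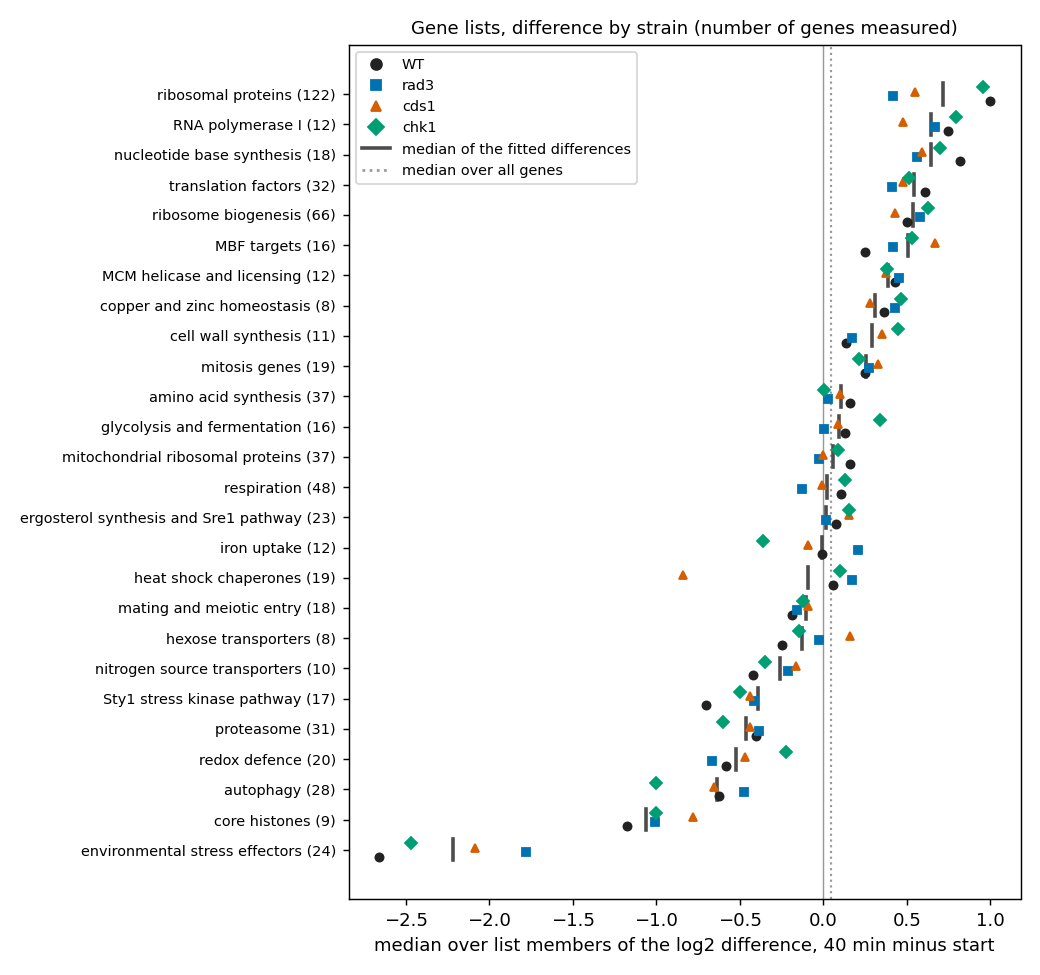
Median over the members of each gene list of the log2 difference, 40 min minus start, by strain (symbols) and for the fitted 4-strain differences (bars), with the number of genes measured in brackets and the median over all genes dotted. Stress effectors lie at -2.22 and ribosomal proteins at 0.72, and the heat shock list is split by the cds1 mutant.

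The largest rise of all was that of ctr4, which encodes a subunit of the high-affinity copper transporter. It stood at -3.80, -3.46, -4.41 and -4.09 at the start and at 0.14, -0.08, -1.97 and -0.86 at 40 min, a difference of 3.25 ± 0.20 (SE) or 9.51-fold, with an adjusted p of 1.03e-05 by limma. Its partner subunit gene ctr5 rose from -3.27, -3.06, -3.09 and -3.17 to -1.25, -1.36, -2.58 and -2.22, and ctr6, which encodes the vacuolar copper transporter, rose by 0.82 ± 0.12 (SE). WT and rad3 had moved further than cds1 and chk1 in both plasma membrane genes. The rises of ctr5 and ctr6 did not pass the test after scaling to equal spread, nor did that of ctr5 after quantile normalization. Over the 8 genes of copper and zinc homeostasis, 4 rose and 2 fell (median 0.31), where 35.9% of all genes rose and 28.6% fell. Other large rises were SPOM_SPBP23A10.11C (2.46 ± 0.12, SE), the F-box protein gene pof15 (2.36 ± 0.28, SE), laf1 (1.77 ± 0.08, SE), fsh2 (1.55 ± 0.14, SE) and gas1 (1.75 ± 0.11, SE), which encodes a glucan-remodelling enzyme of the cell wall.

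Transporters of sugar and nitrogen moved in both directions, where 35.9% of all genes rose and 28.6% fell. Of 8 hexose transporter genes, ght2 went from 3.72, 3.28, 3.12 and 3.63 to 0.72, 0.69, 0.98 and 1.07, and ght5, which encodes the main high-affinity glucose transporter, from -0.49, -0.56, 0.64 and 1.11 to -1.59, -1.58, -0.89 and -1.48. The gene ght8 rose from -2.07, -2.08, -1.83 and -2.42 to -0.39, -0.65, -0.51 and 0.14, and the other 5 did not pass the test (list median -0.13). After scaling to equal spread 5 of the 8 fell and 1 rose. Of 10 transporters of nitrogen sources 5 fell and 2 rose (median -0.26, and 0.03 after quantile normalization). The amino acid permease gene per1 fell by 1.42 ± 0.08 (SE) and the peptide transporter gene ptr2 rose by 1.31 ± 0.18 (SE). The permease gene isp5 fell by 1.37 ± 0.10 (SE) from unlike starting levels of 4.30, 3.08, 2.12 and 2.67, and its difference after quantile normalization was 0.58 (limma adjusted p 0.202).

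Iron uptake genes changed in both directions, where 35.9% of all genes rose and 28.6% fell. The siderophore synthesis genes sib2 and sib1 fell, sib2 from 1.38, 1.50, 2.04 and 1.79 to -0.82, -0.57, 0.13 and -0.52 and sib1 by 1.33 ± 0.11 (SE). The iron permease gene fip1 rose by 0.82 ± 0.20 (SE) and str3, of the siderophore transporter family, by 0.82 ± 0.27 (SE, limma adjusted p 0.0264, and not past the test after scaling to equal spread, after quantile normalization, or without WT, rad3 or cds1). Over the 12 iron uptake genes 4 fell, 2 rose and 6 did not pass the test (median -0.01, but 0.07 after scaling to equal spread and 0.12 after quantile normalization).

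Core metabolism moved little as groups, where 35.9% of all genes rose and 28.6% fell. In glycolysis and fermentation 7 of 16 genes rose and 1, the hexokinase gene hxk1, fell (median 0.10, and 4 rose and 3 fell after scaling to equal spread). In respiration 10 of 48 rose and 8 fell (median 0.03, and -0.01 after scaling to equal spread), with the 2-oxoglutarate dehydrogenase gene kgd1 at -1.08 ± 0.09 (SE). In amino acid synthesis 15 of 37 rose and 6 fell (median 0.11, but -0.12 after scaling to equal spread and -0.10 after quantile normalization). The list member leu5 rose by 1.11 ± 0.10 (SE) and arg12, of arginine synthesis, fell by 1.10 ± 0.10 (SE). In the ergosterol and Sre1 list 9 of 23 rose and 4 fell, with the haem synthesis gene hem13 at 1.09 ± 0.11 (SE), and the median of 0.02 was -0.16 after scaling to equal spread. Of 37 mitochondrial ribosomal protein genes 11 rose and 7 fell (median 0.06). The largest mitochondrial fall, mrpl40 at -2.65 ± 0.19 (SE), rested on 1 of 2 probes, whose differences were -5.38 and 0.09.

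Most genes of S phase and the G1/S transition, taken as markers of cells beyond G2, stood below the asynchronous reference at both times. Of 9 core histone genes 8 fell and none rose (median -1.06), where 28.6% of all genes fell. The list median went from -0.93 at the start to -2.04 at 40 min, and all 9 stood below the reference in all strains at 40 min. The H2B gene htb1 went from -0.72, -0.96, -1.21 and -0.85 to -2.22, -2.22, -2.37 and -2.37, the H2A gene hta1 from -0.53, -0.99, -1.12 and -1.15 to -1.98, -2.14, -1.89 and -2.15, and the H4 gene hhf3 from -0.48, -0.80, -0.79 and -0.58 to -2.10, -1.97, -1.96 and -2.12. The 4 strains lay close together at 40 min, and the times did not overlap for any of these 3 genes (14.8% of all genes lay lower at 40 min without overlap). Histone copies are near-identical in sequence, so their probes may share signal. This fall held with 8 genes called under each scaling tried.

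Targets of MBF, the factor that activates transcription at G1/S, stood even lower at the start, and their change depended on the scaling of the arrays. Of 16 targets 13 rose and 2 fell, where 35.9% of all genes rose and 28.6% fell. The list median was -1.73 at the start, -1.30 at 40 min and 0.50 for the difference. After scaling to equal spread, however, 3 rose and 6 fell with a median of -0.15. The gene cdc22, for the large subunit of ribonucleotide reductase, stood at -3.06, -3.53, -3.53 and -3.41 and then at -2.72, -3.32, -2.25 and -2.46, a difference of 0.70 ± 0.17 (SE, limma adjusted p 0.00799) that became -0.55 after scaling to equal spread and 0.16 after quantile normalization. The licensing gene cdc18 rose by 0.76 ± 0.12 (SE) and the S-phase cyclin gene cig2 by 0.93 ± 0.10 (SE), and neither passed the test after scaling. The dUTPase gene dut1 rose from -3.37, -3.23, -3.29 and -3.38 to -1.80, -2.22, -1.59 and -1.62, a difference of 1.51 ± 0.13 (SE), and was still far below its 80 min mean of 0.64. The 2 falls were ctp1, a DNA end resection gene (-0.65 ± 0.09, SE), and nrm1, which encodes the corepressor of MBF (-0.24 ± 0.09, SE), whose call was lost without replicate 1, replicate 2, rad3, cds1 or chk1.

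Of 19 mitosis genes 10 rose and 2 fell, where 35.9% of all genes rose and 28.6% fell (median 0.26). After scaling to equal spread 6 rose and 3 fell (median 0.14), where 1398 of all 4928 genes rose and 1507 fell. The Aurora kinase gene ark1 rose from -0.81, -0.97, -0.97 and -0.75 to 0.52, 0.68, 0.39 and 0.41, and slp1, which encodes the Cdc20-like activator of the anaphase-promoting complex, from -1.28, -1.53, -2.51 and -1.60 to -0.22, -0.64, -0.75 and -0.52. The Polo kinase gene plo1 rose by 0.53 ± 0.09 (SE) and the forkhead factor gene sep1 fell by 1.11 ± 0.09 (SE). Of 12 genes of the MCM helicase and origin licensing 10 rose and none fell (median 0.39, with 7 or more rising under each scaling tried), among them orc5 (0.90 ± 0.10, SE) and mcm6 (0.73 ± 0.11, SE). In cell wall synthesis 7 of 11 rose and 1 fell, gas2, by 1.32 ± 0.13 (SE), with a median of 0.29. After scaling to equal spread 3 of the 11 rose and 1 fell (median 0.12), and after quantile normalization 4 rose and 1 fell (median 0.18). The gene spd1, which encodes an inhibitor of ribonucleotide reductase, went from 1.52, 1.37, 1.28 and 1.23 to -0.46, -0.29, -0.52 and -0.59, a difference of -1.81 ± 0.09 (SE).

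Genes of mating and meiotic entry, markers of another state that a starved culture could enter, showed no common level. Of 18 genes 6 fell and 3 rose, where 28.6% of all genes fell and 35.9% rose. The median was -0.10, and 9 fell and 1 rose after scaling to equal spread. At the start 4 of the 18 stood above the reference in all strains. The gene ste11, which encodes the master factor of sexual differentiation, rose from 0.00, -0.18, -1.18 and -1.43 to 0.54, 0.25, -0.17 and -0.56. The kinase gene byr1 of the pheromone pathway fell by 0.98 ± 0.10 (SE), and mei2, the meiotic RNA-binding protein gene, differed by -0.18 ± 0.11 (SE), which did not pass the test.

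The strains differed in how far they had moved by 40 min. The strain by time F test of limma called 165 of 4927 genes (3.35%), 101 after scaling to equal spread and 31 where every probe of a gene had to pass. It rests on array repeats with 8 residual degrees of freedom, and the repeats of cds1 and chk1 lay much closer together than those of WT and rad3. The contrast of rad3 with WT was called for 50 genes (1.01%), of which 40 (0.812%) were higher in rad3 and 10 (0.203%) lower. That of cds1 was called for 78 (1.58%), with 38 (0.771%) higher and 40 (0.812%) lower, and that of chk1 for 59 (1.2%), with 35 (0.71%) higher and 24 (0.487%) lower. The SD over genes of the difference was 0.836, 0.658, 0.724 and 0.826. As a description across genes, the slope of a mutant's difference on that of WT was 0.715 for rad3, 0.787 for cds1 and 0.901 for chk1. The correlation over genes between a strain's own start and 40 min profiles was 0.252, 0.503, 0.474 and 0.274, higher for rad3 and cds1 than for WT and chk1.

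In rad3 the differences of the stress effectors were the smaller ones. The mutant had the smallest change of the 4 strains for 17 of the 24 effectors. Its difference was called higher than that of WT for 4 of the 24 and lower for none (median of rad3 minus WT 0.63). Over all genes 0.812% were called higher and 0.203% lower in rad3. At 40 min the list median was 0.63 in rad3 and 0.16 in WT, from starts of 2.52 and 2.38. Among the genes named here, the largest contrasts called in rad3 were those of SPOM_SPACUNK4.17, 2.50 ± 0.13 (SE, limma adjusted p 3.43e-06), and of wwm3, 2.03. For SPOM_SPAC32A11.02C, which went from 5.11, 4.67, 5.26 and 5.55 to -0.21, 0.91, 0.54 and 0.24, the rad3 contrast was 1.57, and for ish1 it was 1.43. The ribosomal proteins showed the reverse, with a median of rad3 minus WT of -0.56 and 4 of 122 genes called lower (0.203% of all genes). This was not particular to rad3: for cds1 the median was -0.37, with 5 of 122 called lower (0.812% of all genes). Of the stress effectors, 3 were called higher and 3 lower in cds1 (median 0.31), where 0.771% and 0.812% of all genes were. After scaling to equal spread, 1 stress effector was called higher and 1 ribosomal protein gene lower in rad3 (medians 0.43 and -0.52), and after quantile normalization 7 and 3 were (medians 0.73 and -0.67). In cds1, 3 ribosomal protein genes were called lower after scaling and 6 after quantile normalization (medians -0.45 and -0.64). The counts also depend on the block. With strain by repeat pairs as a replicate block, a fit chosen after seeing the data, the F test called 903 genes. In that fit 58 of 122 ribosomal protein genes were called lower in rad3 and 30 in cds1. Of the 24 stress effectors, 12 were called higher in rad3, and 8 higher and 3 lower in cds1. The rad3 repeats at 40 min also correlated least with each other of all 8 conditions (r = 0.484 over genes), and WT start repeat 1 correlated more with rad3 start repeat 2 (r = 0.938) than with the other WT start array (r = 0.869). The differences between repeats of WT and of rad3 ran opposite to each other over genes (r from -0.56 to -0.77 over the 2 times), and no label names a batch that these arrays share. The part of these deviations in the rad3 contrast was not tested.

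In cds1 it was the start that stood apart, in genes of the heat shock response. This response, driven by the heat shock factor Hsf1, raises chaperones that refold damaged proteins. Of 19 heat shock genes, cds1 was the highest strain at the start for 17. The list median at the start was 0.62 in cds1, against 0.06 in WT, -0.10 in rad3 and -0.50 in chk1. At 40 min it was -0.11 in cds1, between the 0.11 of WT and the -0.25 of chk1. The disaggregase gene hsp104 went from 1.88, 2.57, 4.68 and 2.41 to 0.47, 1.63, 1.26 and -0.25, and its mitochondrial relative hsp78 from 0.50, 0.81, 3.31 and 0.47 to 0.19, 0.86, 1.27 and -0.27. The cds1 start was more than 2 log2 units above each other strain for both genes, and rad3 or cds1 was highest at 40 min. Outside the list, and named because their strain by time p-values were among the 8 lowest, were fes1, slt1 and wis2, whose values are therefore a description. The gene fes1, for a nucleotide exchange factor of Hsp70, went from 0.07, 0.38, 1.84 and -0.37 to 0.35, 0.75, 0.19 and -0.65, and wis2, for a cyclophilin that works with Hsp90, from -1.14, -0.39, 0.60 and -1.73 to -0.19, 0.18, -0.37 and -0.93. The values of both genes were lower at 40 min than at the start in cds1 and higher in WT and rad3.

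Over all genes the cds1 minus WT contrast was called lower for 0.812% and higher for 0.771%. It was called lower for 7 of the 19 heat shock genes and higher for none (median -1.06). It was -2.00 ± 0.21 (SE, limma adjusted p 0.00089) for hsp104 and -1.72 ± 0.27 for hsp78. It was also called for the list members hsp16 and hsp90, chosen after their values were seen, where cds1 started at 5.02 and 0.34 against 2.14 and -0.59 in WT. The number called lower was 5 after scaling to equal spread and 3 after quantile normalization. It was 13 with strain by repeat pairs as a replicate block, a fit chosen after seeing the data. Over the 4 strains together 4 heat shock genes rose and 6 fell (median -0.09), where 35.9% of all genes rose and 28.6% fell. Without cds1 8 rose and 3 fell (median 0.16). The list members hsp16, hsp104 and hsp78 are also counted among the stress effectors. The factor gene hsf1 stood at nearly the same level in the strains at the start (1.38, 1.30, 1.27 and 1.28) and fell by 1.08 ± 0.09 (SE). The DnaJ family gene psi1 fell in all 4 strains, by 2.67 ± 0.20 (SE). The gene slt1 stood at 1.60, 1.69, 3.50 and 1.72 at the start, with cds1 the highest.

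**Figure D4:**
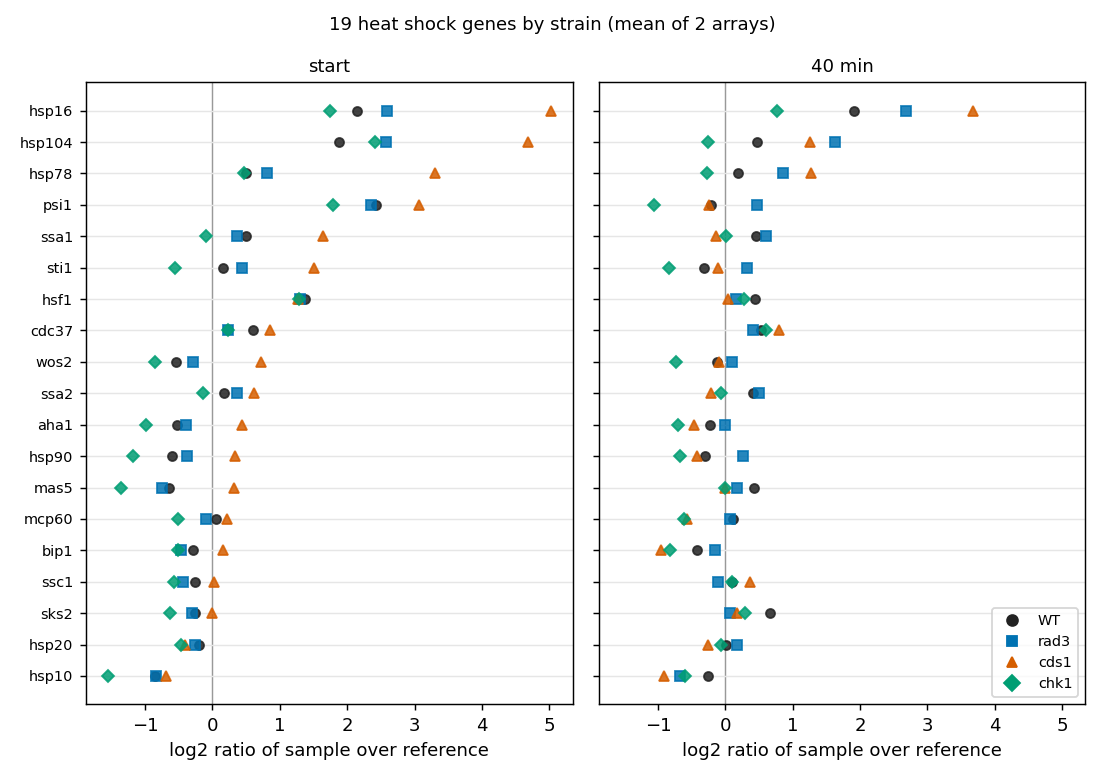
Log2 ratio of sample over reference (horizontal axis, mean of 2 arrays) of the 19 heat shock genes in the 4 strains at the start (left) and at 40 min (right). The cds1 mutant is highest at the start for 17 of the 19 genes and lies among the other strains for most of them at 40 min.

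In chk1 the called contrasts included iron and sugar transport. The ferric reductase gene frp1 stood at 2.05, 2.05, 2.94 and 2.97 at the start and at 2.12, 2.90, 2.60 and 0.85 at 40 min, so that chk1 was lower at 40 min than at the start while WT and rad3 were not, with a chk1 minus WT contrast of -2.20 ± 0.16 (SE, limma adjusted p 0.000127). For str3, too, rad3 was highest and chk1 lowest at 40 min (0.18, 1.16, -0.15 and -1.38), with a contrast of -1.18. Both genes were named for their low strain by time p-values. The contrast was -1.50 for ght5, whose start was highest in chk1, and 1.39 for pof15, which stood at -0.15, -0.47, 0.28 and 1.38 at 40 min.

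The start was also set against each later untreated time in 1 fit over all of them. In that fit 1852 genes (37.6%) were higher and 1485 (30.1%) lower at 40 min than at the start, and the counts at 80 min were 1910 (38.8%) and 1585 (32.2%). At 120 min 1717 genes (34.8%) were higher and 1512 (30.7%) lower. The counts at 160 min were 1652 (33.5%) and 1495 (30.3%), and those at 200 min 1740 (35.3%) and 1475 (29.9%). All these comparisons share the start arrays. The chk1 arrays of untreated cells at 120 min, which match WT arrays, were left out. The correlation over genes of the start mean with the mean of a later time was 0.369, 0.027, 0.199, 0.368 and 0.307 in time order from 40 to 200 min, lowest at 80 min, and the SD over genes of these later means stayed between 0.326 and 0.411.

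Some list medians left their start level and did not return to it, and others rose and fell again. Stress effectors stood at 2.86, 0.39, -0.30, 0.24, 0.25 and 0.45 in time order, and ribosomal proteins at -0.43, 0.32, 0.49, 0.67, 0.62 and 0.47. Both lists kept the sign of their difference from the start at every later time. Ribosome biogenesis was highest at 40 and 80 min (0.42 at both) and declined to 0.02 at 200 min. Histones rose from -2.04 at 40 min to 1.44 at 120 min and returned to -1.13 at 200 min, and MBF targets went from -1.30 at 40 min to 0.32 and 0.49 and back to -1.23 at 160 min. With the HU-treated cells at 40 min in place of the untreated ones, 3085 genes differed from the start, 1705 higher and 1380 lower. In that comparison 23 of 24 stress effectors fell (median -2.19) and 115 of 122 ribosomal protein genes rose (median 0.80).

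**Figure D5:**
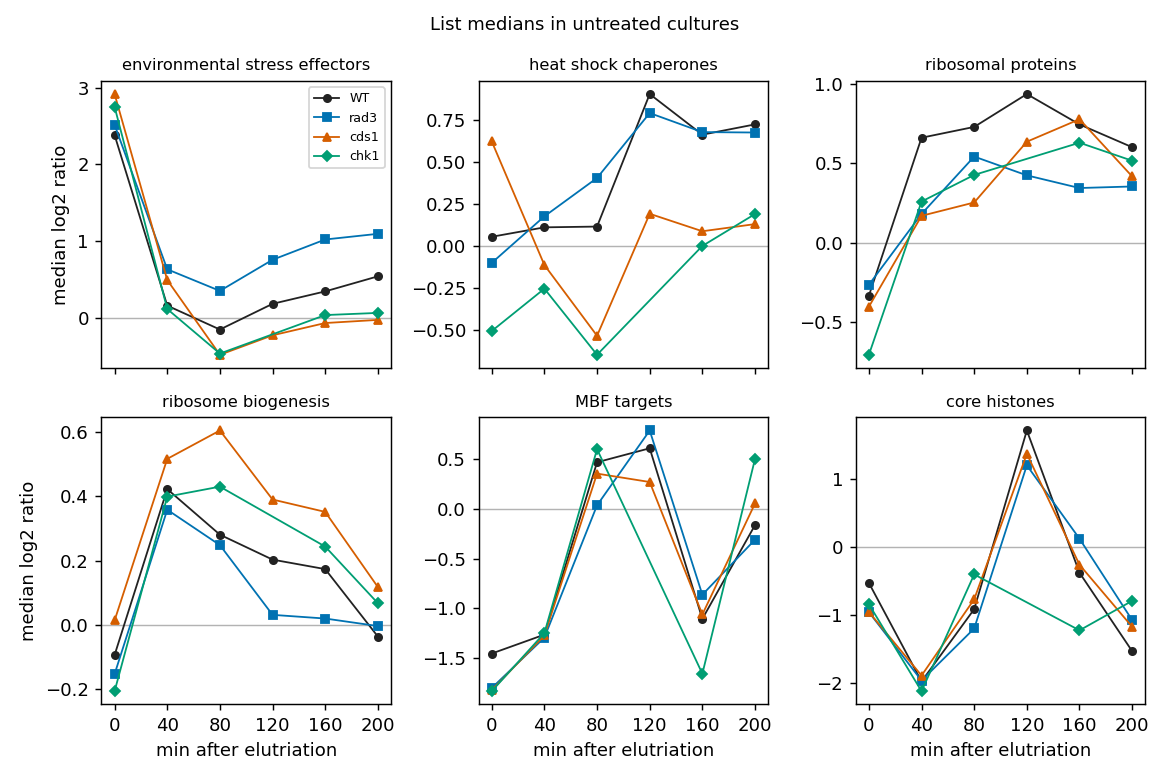
Median log2 ratio of 6 gene lists (vertical axes, each with its own scale) against time after elutriation in min, in untreated cultures of the 4 strains, with chk1 at 120 min left out and its neighbours joined. Stress effectors drop and ribosomal proteins rise between 0 and 40 min in all 4 strains. Their 4-strain medians move further the same way by 80 min, to -0.30 and 0.49. The cds1 mutant starts highest in the heat shock panel.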

How the data were processed

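Total RNA was measured on two-colour arrays, with Cy5 on the sample and Cy3 on the common reference per the labels. The deposited table holds log2 ratios made by the authors, and its log2 scale and the direction of sample over reference were checked on the values and on the mutated genes. How the authors corrected background, normalized, centred or filtered spots is not given in the sources used here, and a scaling of arrays to a common spread is therefore unknown. The number of arrays limits the precision. Values were present for 99.405% of entries on the 16 arrays.

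The table has 9858 probes, of which 9632 carry 1 gene symbol, 44 several and 182 none. RefSeq's ASM294v3 gene table brought 9608 of the symbols up to date. Probes with values on fewer than 80% of arrays were left out (35). Probes of a gene were averaged, giving 4928 units, 4815 with a single gene name. For 69 of 3158 called genes with more than 1 probe, the probes had differences of opposite sign.

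Both repeats of a condition were averaged first. The difference of 40 min minus start was fitted with limma 3.58.1 in R 4.3.3 with strain as a block (3 residual degrees of freedom) and Benjamini-Hochberg adjustment over all genes. Strain by time terms were fitted on the 16 arrays, and all untreated times in 1 fit with 14 residual degrees of freedom. The fits were tested on simulated data. Gene names in the text followed a rule: the 15 largest rises and falls that moved the same way in all strains and repeats, up to 5 members of each list, the 8 lowest p-values of the strain by time test and 20 set genes. Exceptions within lists, hsp16 and hsp90 were chosen after their values were seen. Members, lists and tests were chosen with earlier results of these data known. Lists are described by counts and medians only, and some genes are in more than 1 list. The stress effectors share ctt1, gpx1, srx1, grx1 and gst2 with redox defence and hsp16, hsp104 and hsp78 with the heat shock list. They also share pyp2 with the Sty1 list and zym1 with the copper and zinc list.

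Alternatives were scaling each array to an equal median absolute deviation, quantile normalization, centring, other variance and block settings, probes in place of genes, the HU arm, and leaving out each repeat or strain. Not every list and gene that was measured is reported here, and no sequences are shown.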

Additional observations from a re-analysis of the deposited data

Results flagged for a closer look

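The strain by time test of limma, which rests on technical array repeats, called 27 of the 102 genes named here. In these 27 genes the strains differed in the change from start to 40 min. Over all genes the test called 165 of 4927 (3.35%). Some named genes were chosen for their low p-values in this same test, and hsp16 and hsp90 after their values were seen. The count of 27 is therefore raised by selection and cannot be compared with the share over all genes. Each value below is the mutant minus WT contrast with the lowest p, in log2 units. Contrasts of rad3 were positive for genes that fell, so the fall was smaller: SPOM_SPACUNK4.17 (2.50), wwm3 (2.03), SPOM_SPAC32A11.02C (1.57), ish1 (1.43), pbi2 (1.26), mpr1 (1.00), gst3 (0.91), srx1 (0.80) and psi1 (0.77). Contrasts of cds1 were negative for hsp104 (-2.00), hsp78 (-1.72), hsp16 (-1.11) and hsp90 (-1.06) of the heat shock list, for fes1 (-1.95), wis2 (-1.93) and slt1 (-1.28), which are in no list and were named for their low strain by time p-values, and for the copper transporter gene ctr5 (-1.50), and positive for zym1 (2.02), srk1 (0.80) and the mutated gene cds1 itself (1.03). Contrasts of chk1 were negative for frp1 (-2.20), ght5 (-1.50), pyp2 (-1.29) and str3 (-1.18) and positive for hsp9 (1.41), pof15 (1.39) and ght8 (0.89).

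In 17 of 386 groups of 4 strain values, 1 strain stood apart from the other 3 by Dixon's criterion. Chance alone gives about 1 in 20, so this count is no larger than chance gives. The groups are therefore listed only as a description. The mutated genes gave 3 of them, cds1 in the cds1 mutant at both times (-2.72 and -3.14) and chk1 in the chk1 mutant at 40 min (-1.10). At the start, cds1 stood apart for hsp78 (3.31), slt1 (3.50), ntp1 (2.71), hem13 (-2.33) and the median of the ergosterol list (-0.46), and WT for lsd90 (6.50) and the median of the MBF targets (-1.45). At 40 min, cds1 stood apart for laf1 (-0.10), zwf1 (0.55), rpt5 (-0.025) and ght5 (-0.89), rad3 for ssd2 (0.97) and WT for gut2 (-0.45). The median difference of the heat shock list stood apart in cds1 (-0.84).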

How the results depend on the processing

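The number of genes that differed between start and 40 min ran from 2474 (every probe of a gene called) to 3614 (each array as a sample, with the repeat number as a replicate block), and from 2766 to 3123 when a repeat or strain was left out. Against a log2 difference of 1 (limma's treat) 209 genes passed, 20 higher and 189 lower. The start to 40 min ratio of SDs ran from 1.65 to 1.75 with a repeat or strain left out. Repeat numbers did not pair the arrays in every strain: deviations of same-numbered arrays at start and 40 min correlated over genes at 0.70, 0.61, 0.087 and -0.0053 (WT, rad3, cds1, chk1). The count for strain by time was 121 with the repeat number as a replicate block, 101 after scaling to equal median absolute deviation, 31 by probes, and 903 with strain by repeat pairs as a replicate block, a fit chosen after seeing the data.

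After scaling to equal median absolute deviation the sign turned for hsp16 (0.31), hsp90 (-0.039), frp1 (0.46) and cdc22 (-0.55), and for the medians of amino acid synthesis (-0.12), ergosterol synthesis (-0.16), MBF targets (-0.15), respiration (-0.0051) and iron uptake (0.067). After quantile normalization it turned for hsp9 (0.66), hsp16 (1.38), frp1 (1.80), isp5 (0.58) and rps2802 (0.11), and for the medians of amino acid synthesis (-0.10), ergosterol synthesis (-0.13), nitrogen transporters (0.028) and iron uptake (0.12). Centring turned the medians of respiration (-0.037) and mitochondrial ribosomal proteins (-0.0015) and the ergosterol median (-0.045), which ran from -0.025 (without cds1) to 0.10 (without chk1) when a repeat or strain was left out. Leaving out replicate 2 turned hexose transporters (0.011) and iron uptake (0.044), leaving out chk1 turned iron uptake (0.11) and respiration (-0.032), leaving out cds1 turned the heat shock list (0.16), and the HU arm turned respiration (-0.0044). The difference of frp1 ran from -0.79 (without rad3) to 0.20 (without chk1), and that of fes1 turned without cds1 (0.13), and neither gene had passed the test. Leaving out 1 strain or repeat ended the call of hsp78 (without WT, cds1, chk1 or replicate 1), hsp16 (without cds1 or chk1), str3 (without WT, rad3 or cds1), the genes rad3 and chk1, ade4, cmk2 and nrm1 at least once, and of no other called gene named here. The cause was not tested. Of 1836 alternative values of the named genes 1685 kept their direction and side of the threshold, and of 97 called named genes 41 passed against a log2 difference of 1. With 4 pairs of conditions and 1 culture each, a difference between strains of any size cannot be told apart from culture or array batch. The repeat SD measures technical array repeats only.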
